A study of Homo sapiens with 6 samples.

Results

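Regulators that choose exons during pre-mRNA splicing were taken from the deposited gene table by symbol. They comprise the SR proteins (SRSF genes), the hnRNPs (HNRNP genes) and the MBNL, CELF, ESRP, RBFOX, PTBP, NOVA and TRA2 genes, without pseudogenes. The rule found 59 of the 28395 genes listed: 12 SRSF, 26 HNRNP, 3 MBNL, 6 CELF, 2 ESRP, 3 RBFOX, 3 PTBP, 2 NOVA and 2 TRA2 genes. Of these, 47 reached a mean signal of 10 over all libraries and were tested.

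Pre-mRNA is spliced by the spliceosome, and which exons it joins is set largely by proteins that bind short motifs in exons and introns. SR proteins bind exonic enhancers and generally promote inclusion of the exon, whereas hnRNPs such as PTBP1 often silence it. The MBNL, CELF, ESRP, RBFOX and NOVA proteins act in a tissue-specific manner, and the ESRP proteins maintain the epithelial splicing program. Many of these genes also control their own level through an exon that carries a premature stop codon, so that the transcript containing it is degraded.

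HCC827, a human lung adenocarcinoma cell line with an activating deletion in EGFR, was treated with the vehicle DMSO (3 libraries, numbered 1 to 3) or with 1 µM of the EGFR kinase inhibitor erlotinib (3 libraries, numbered 4 to 6) for 24 h. The comparison asks how inhibition of EGFR changes gene expression. All libraries come from 1 cell line, and the sample labels do not say whether they were separate cultures, so the p-values measure only the spread between these samples. The libraries held between 20760204 and 24641819 reads assigned to genes, and the deposited values are such reads divided by 1 size factor per library, here called signal.

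Epithelial markers were abundant in every library, with summed signals of 359229 to 389520 with DMSO and 270936 to 283706 with erlotinib. All 9 were tested, 5 were lower and 2 higher with erlotinib (adjusted p under 0.05), and KRT7 was the most abundant. Over all genes tested, 35.4% were lower and 35.3% higher. Among genes whose mean signal reached 1000, 50.9% were lower and 28.5% higher. Leukocyte markers were near zero: none of the 6 was tested and none exceeded 26 reads in any library. Of the fibroblast markers 1 of 6 was tested, and COL1A1 made up most of a summed signal of 73.7 to 109 with DMSO and 215 to 260 with erlotinib. Of the endothelial markers 2 of 4 were tested, at sums of 15.8 to 34.0 and 45.9 to 58.1, and PECAM1 was the most abundant with DMSO and VWF with erlotinib. Of the muscle markers only MYH3 of 6 was tested, at sums of 266 to 330 and 208 to 232, and MYOD1 and MYOG were listed at 0. DMSO library 2 stood somewhat apart. Its reads differed from those of DMSO libraries 1 and 3 with a chi-square of 22.9 and 14.4 per degree of freedom over genes, against 7.61 between libraries 1 and 3 and 4.05 to 5.87 between erlotinib libraries. The deviation of library 2 from its group's mean correlated with the GC content of 12555 genes (Spearman's rho of -0.59 across genes, which are not independent). The DMSO libraries 1 and 3 gave 0.37 and 0.43. For 42 of the 47 regulators library 2 was at one end of the DMSO group, against 30 for library 1 and 22 for library 3. Among the erlotinib libraries, library 6 was at one end for 37 regulators (the lowest for 34), against 28 for library 4 and 29 for library 5. The counts without DMSO library 2 and without erlotinib library 6 stand beside the main counts.

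Splicing regulators were mostly lower with erlotinib. Of the 47 tested, 34 were lower (adjusted p under 0.05; 35.4% of all 14215 genes tested were lower) and 4 were higher (35.3% of all genes). The 4 were MBNL2, SRSF8, ESRP1 and, at a very low level, RBFOX3. The other 9, SRSF5, SRSF6, SRSF11, SRSF12, HNRNPLL, MBNL3, PTBP2, RBFOX2 and NOVA1, did not pass. The median log2 fold change was -0.60 over the regulators and 0.02 over all genes. A fall of at least 1 log2 unit was found in 11 regulators (10.8% of all genes) and a rise of that size in 2 (17.0%). In 34 regulators every erlotinib library was below every DMSO library (36.9% of all genes), and in 4 every one was above (36.7%). Without DMSO library 2, 35 were lower and 3 higher, and without erlotinib library 6, 32 were lower and 3 higher. When each library was instead scaled to its total, the median of all genes moved to 0.19, calls over all genes shifted from 35.4% lower and 35.3% higher to 27.8% and 43.3%, and 29 regulators were lower and 6 higher.

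Because abundant genes (those whose mean signal reached 1000) fell more often, the regulators were also set beside genes of similar abundance. Among the 5014 genes whose mean signal reached 1000, 50.9% were lower and 28.5% higher. Of the 40 regulators above that level, 32 were lower and 3 higher. Reads assigned to all 59 regulators made up 13.8, 14.3 and 13.9 of every 1000 reads in the DMSO libraries. They made up 9.70, 9.65 and 9.20 of every 1000 in the erlotinib libraries, so that the groups did not overlap. This share does not depend on the size factors. In bulk RNA, fewer cells of one kind and less RNA per cell cannot be told apart.

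**Figure D1:**
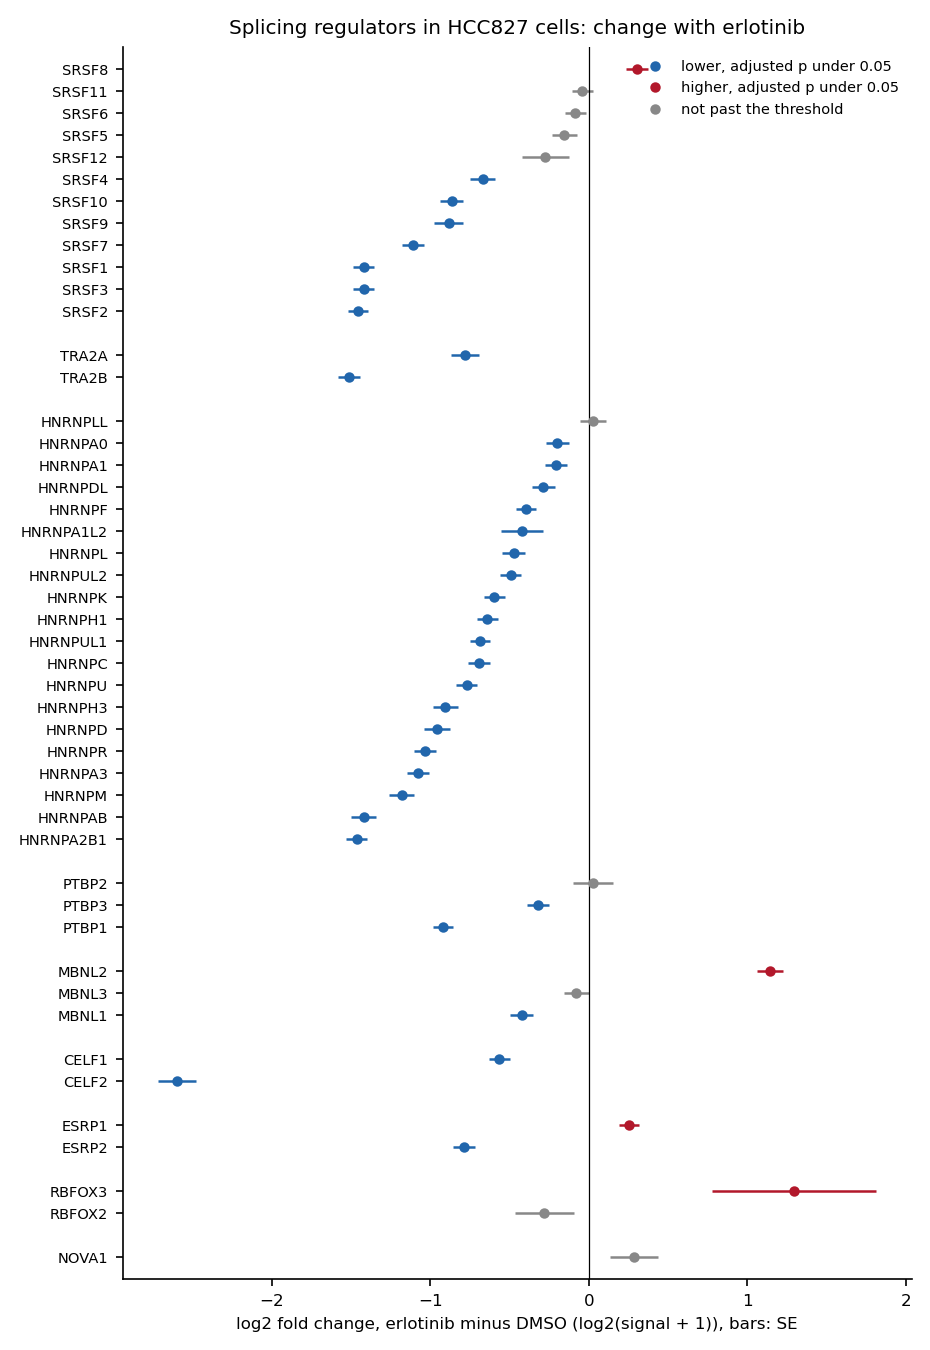
Log2 fold change (erlotinib minus DMSO, on log2(signal + 1)) of the 47 tested splicing regulators, grouped by family, with bars for the SE from limma (3 libraries per treatment). Blue points are lower (34 genes), red points higher (4 genes) and grey points (9 genes) not past the threshold, and CELF2 and TRA2B lie farthest to the left.

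Of the 12 SR protein genes, 7 (58.3%) were lower, 1 was higher and 4 did not pass, where 35.4% of all genes and 50.9% of abundant genes were lower, so that the share of SR protein genes was near that of abundant genes. They had a summed signal of 66408 to 71510 in DMSO and 35946 to 38064 in erlotinib libraries. SRSF1, the prototype SR protein and a known oncoprotein, gave signals of 24832, 26117 and 22691 in DMSO libraries and of 9281, 9534 and 8683 in erlotinib libraries. The groups were far apart, and the signal was 2.68-fold lower (log2 fold change -1.42 ± 0.07 SE, adjusted p = 1.1e-13). SRSF2, which also takes part in transcription elongation, measured 10154, 10302 and 9618 with DMSO and 3655, 3639 and 3673 with erlotinib. It was 2.74-fold lower (log2 fold change -1.45 ± 0.06 SE, adjusted p = 2.2e-14), and its erlotinib libraries lay close together (mean 3656, SD 17.0, n = 3). SRSF3, the smallest SR protein, measured 5945, 6485 and 6119 with DMSO and 2303, 2442 and 2187 with erlotinib. That is 2.68-fold lower (log2 fold change -1.42 ± 0.07 SE, adjusted p = 1.5e-13). SRSF7, a close relative of SRSF3 that shuttles to the cytoplasm and aids mRNA export, measured 2923, 3225 and 3044 with DMSO and 1424, 1455 and 1382 with erlotinib. It was 2.16-fold lower (log2 fold change -1.11 ± 0.07 SE, adjusted p = 1.8e-11). SRSF4, SRSF9 and SRSF10 fell by less, with log2 fold changes of -0.67, -0.88 and -0.86. Per kb of transcript, SRSF2 (5310 signal per kb with DMSO) and SRSF1 (4594) were the most abundant SR protein genes, and with erlotinib they had 1936 and 1716.

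The SR protein genes did not move as a block. SRSF8, an intronless retrogene relative of SRSF2, rose: its signals were 2526, 2761 and 2446 with DMSO and 3141, 3149 and 3247 with erlotinib. All erlotinib libraries were above all DMSO libraries (log2 fold change 0.30 ± 0.07 SE, adjusted p = 5.9e-04). SRSF6, which binds exonic enhancers like SRSF1, measured 5519, 5171 and 5222 with DMSO and 5070, 5359 and 4605 with erlotinib. The groups overlapped and the log2 fold change of -0.08 ± 0.07 SE did not pass (adjusted p = 0.281). SRSF11 and SRSF5 had log2 fold changes of -0.04 and -0.15 that did not pass either, although SRSF5 passed as lower without DMSO library 1 (-0.23, adjusted p = 0.0169). All 3 turned to positive values when each library was scaled to its total (0.10, 0.14 and 0.0255) or when GC content and length were corrected for (0.10, 0.17 and 0.10), and in the latter case SRSF11 passed as higher (adjusted p = 0.00313). SRSF12, the least abundant, was lower in every erlotinib library, between 173 and 195 against 200 to 247 with DMSO, and did not pass (adjusted p = 0.104).

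The paralogs TRA2A and TRA2B, SR-like proteins that bind GAA-rich exonic enhancers, both fell. TRA2B measured 5044, 5274 and 5061 with DMSO and 1848, 1861 and 1691 with erlotinib. Its log2 fold change of -1.51 ± 0.07 SE was 2.85-fold (adjusted p = 5.8e-14), the second largest fall among the regulators after CELF2. TRA2A measured 1973, 2280 and 1929 with DMSO and 1233, 1292 and 1070 with erlotinib (log2 fold change -0.78 ± 0.09 SE, adjusted p = 9.4e-08). TRA2B thus lost more than TRA2A, and the log2 ratio of TRA2A to TRA2B went from -1.32 ± 0.10 (SD, n = 3) to -0.59 ± 0.07 (SD, n = 3). Per kb of transcript, TRA2B was slightly above TRA2A with DMSO (1227 against 1154 signal per kb) and below it with erlotinib (431 against 671).

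**Figure D2:**
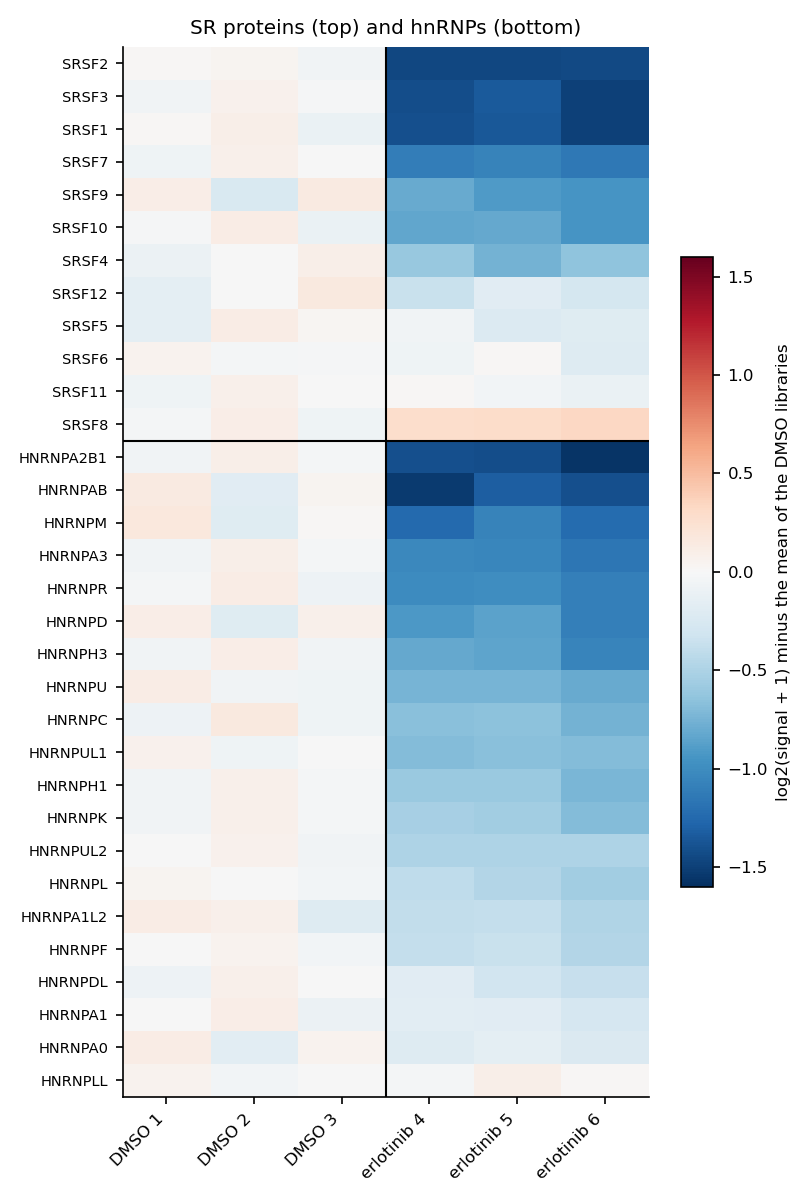
Each cell is log2(signal + 1) of one gene in one library minus the mean of the 3 DMSO libraries, for the 12 SR protein genes (top) and the 20 tested hnRNP genes (bottom), ordered by log2 fold change. SRSF2, SRSF3, SRSF1 and HNRNPA2B1 are dark blue in all 3 erlotinib libraries, SRSF8 is pale red, and SRSF6, SRSF11 and HNRNPLL stay near white.

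Signal per gene holds productive and non-productive transcripts together, so it does not show which exons were joined. GENCODE release 44 lists, for 23 of the tested regulators (9 SRSF and 7 HNRNP genes), at least 1 internal exon that is found in transcripts annotated for nonsense-mediated decay and overlaps no exon of the reference (MANE) transcript. Reads inside these exons were counted as signal of the gene where the annotation used for counting holds the exon. Exons of TRA2B and SRSF7, which fell, and of SRSF6, which did not pass, are shown because they are among the stretches that tell the non-productive form from the productive one. Each is printed in the sense of the gene on GRCh38 with the annotated stop codon in capitals. The TRA2B exon lies at chr3:185931577-185931852 on the minus strand, is 276 bases long and has its stop at base 79. The SRSF7 exon shown lies at chr2:38748898-38749173 on the minus strand, is also 276 bases long and has its stop at base 20. Such exons of 69 and 449 bases are also listed for SRSF7, and the longer one overlaps the exon shown. The SRSF6 exon lies at chr20:43459153-43459420 on the plus strand, is 268 bases long and has its stop at base 150. The letters GAAGAA, a form of the GAA-rich motif bound by TRA2 proteins, were found 3 times in the TRA2B exon, once in the SRSF7 exon and 0 times in the SRSF6 exon. For comparison, 2414 internal exons of reference transcripts have a length of 260 to 290 bases. Of these, 20.5% hold GAAGAA at least once on the sense strand. Exons of other lengths were not counted, so this share does not apply to shorter exons. The exons read for SRSF2, SRSF3, SRSF9 and PTBP1, which were lower, held 0 matches. An exon of HNRNPA2B1 held 2 and the TRA2A exon of 79 bases, part of a longer one, held 1 (both genes lower). The exon of NOVA1, which did not pass, held 1. Longer exons were not searched, among them those of 301 bases in TRA2A, 363 in SRSF10 and 456 in SRSF3. A match is a description of the sequence and not a binding site.
TRA2B exon: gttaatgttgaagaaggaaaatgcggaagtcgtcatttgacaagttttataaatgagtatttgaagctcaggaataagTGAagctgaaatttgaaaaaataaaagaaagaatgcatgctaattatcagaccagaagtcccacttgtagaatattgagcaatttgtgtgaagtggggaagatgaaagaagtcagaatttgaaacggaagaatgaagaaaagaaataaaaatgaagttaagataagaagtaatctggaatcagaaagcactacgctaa
SRSF7 exon: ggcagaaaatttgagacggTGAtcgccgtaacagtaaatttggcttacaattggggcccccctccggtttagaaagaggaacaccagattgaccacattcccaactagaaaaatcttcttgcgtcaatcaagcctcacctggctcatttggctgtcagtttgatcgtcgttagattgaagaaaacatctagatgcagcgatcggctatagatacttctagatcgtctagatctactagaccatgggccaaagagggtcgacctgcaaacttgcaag
SRSF6 exon: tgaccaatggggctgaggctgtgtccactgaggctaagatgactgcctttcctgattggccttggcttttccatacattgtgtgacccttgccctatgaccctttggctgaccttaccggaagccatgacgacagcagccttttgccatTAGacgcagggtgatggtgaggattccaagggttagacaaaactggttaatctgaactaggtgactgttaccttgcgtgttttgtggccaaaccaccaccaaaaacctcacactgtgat

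The hnRNP genes were lower almost throughout. Of 26 listed, 20 were tested, 19 were lower (95.0%, against 35.4% of all genes and 50.9% of abundant genes), none was higher and HNRNPLL did not pass. With libraries scaled to their totals, 4 of the 19 calls ended, those of HNRNPA0, HNRNPA1, HNRNPDL (adjusted p = 0.217) and HNRNPA1L2 (adjusted p = 0.108), and HNRNPA1L2 also lost its call when GC content and length were corrected for (adjusted p = 0.146). The summed signal was 187790 to 195057 with DMSO and 106095 to 113964 with erlotinib. HNRNPA2B1, which binds nascent RNA and also sorts RNAs in the cytoplasm, was the most abundant regulator per kb with DMSO (8048 signal per kb). It measured 27979, 31029 and 28582 with DMSO and 10981, 10936 and 9835 with erlotinib. The groups were far apart (2.76-fold lower, log2 fold change -1.46 ± 0.07 SE, adjusted p = 6.3e-14). HNRNPAB, a relative of HNRNPD, came second per kb (7450) and measured 14489, 11590 and 13480 with DMSO and 4535, 5250 and 4973 with erlotinib. It was 2.68-fold lower (log2 fold change -1.42 ± 0.08 SE, adjusted p = 1.3e-12). HNRNPM, a splicing factor that acts at GU-rich sites against ESRP1 on some exons, measured 15574, 12148 and 14112 with DMSO and 5853, 6616 and 5920 with erlotinib. DMSO library 2 was the lowest of its group for HNRNPM and HNRNPAB, and all erlotinib libraries were still far below it (HNRNPM: 2.27-fold lower, log2 fold change -1.18 ± 0.08 SE, adjusted p = 3.3e-11). HNRNPA3, of the A/B group, and HNRNPR, which is also found in motor neuron axons, were 2.11-fold and 2.05-fold lower (log2 fold changes -1.08 and -1.03).

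At the other end stood HNRNPA1, HNRNPA0 and HNRNPLL. HNRNPA1, the best known antagonist of SRSF1 in the choice of splice sites, measured 6215, 6728 and 5861 with DMSO and 5553, 5541 and 5184 with erlotinib (log2 fold change -0.21 ± 0.07 SE, adjusted p = 0.0098). Its groups were separate by a narrow margin, and its call was lost without erlotinib library 6 (adjusted p = 0.0629), when libraries were scaled to their totals (log2 fold change -0.03) and when GC content and length were corrected for (-0.08). The genome holds 74 named HNRNPA1 pseudogenes, more than for any other regulator, and only uniquely mapped reads were counted, so the level of this gene is uncertain. HNRNPA0, which is encoded by 1 exon, was called lower (log2 fold change -0.20 ± 0.07 SE, adjusted p = 0.0171) although 1 DMSO library, at 11911, lay within the erlotinib range of 11324 to 12021. Leaving out 1 library ended this call in 4 of 6 cases, and so did both corrections. HNRNPLL, known as a regulator of CD45 splicing in lymphocytes, was between 991 and 1065 with DMSO and between 1004 and 1090 with erlotinib (log2 fold change 0.03 ± 0.08 SE, adjusted p = 0.791), whereas its paralog HNRNPL fell (-0.47 ± 0.07 SE, adjusted p = 6.1e-06). HNRNPLL passed as higher when libraries were scaled to their totals (0.21, adjusted p = 0.0308) and when GC content and length were corrected for (0.26, adjusted p = 0.00377). With erlotinib, HNRNPF, a G-tract binding protein with a log2 fold change of -0.40, had the highest signal per kb of all regulators (4185), above HNRNPA2B1 (2917) and HNRNPAB (2779).

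Some of these genes overlap other expressed genes, and the strand setting of the counting is not given in the sources used here, so reads in the shared stretch could not be assigned with certainty. This holds for HNRNPA2B1 with CBX3, HNRNPA3 with NFE2L2, HNRNPAB with PHYKPL and HNRNPUL1 with TGFB1, and also for SRSF9 with GATC and ESRP2 with NFATC3, where the mean signal of the other gene was above 1000. Below that, CELF1 overlaps PTPMT1 (mean signal 922), SRSF2 overlaps MFSD11 (348) and HNRNPH3 overlaps RUFY2 (334). The 6 hnRNP rows that were not tested were the HNRNPC copies HNRNPCL1 to HNRNPCL4 and the readthrough HNRNPUL2-BSCL2, all listed at 0 reads, and HNRNPH2, with 6 reads in all libraries together. HNRNPH2 overlaps a readthrough gene annotated over it, and its level says nothing firm about expression.

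The polypyrimidine tract binding proteins split. PTBP1, which silences exons next to pyrimidine-rich tracts, measured 13406, 12249 and 13079 with DMSO and 6734, 6987 and 6732 with erlotinib. It fell 1.89-fold (log2 fold change -0.92 ± 0.06 SE, adjusted p = 3.5e-11) with no overlap. PTBP3, first known from haematopoietic cells, measured 15319, 16436 and 14050 with DMSO and 12455, 12323 and 11838 with erlotinib (log2 fold change -0.32 ± 0.07 SE, adjusted p = 2.2e-04). This smaller change did not pass when libraries were scaled to their totals (-0.14, adjusted p = 0.0552). PTBP2, the neuronal paralog that PTBP1 is known to repress by exon skipping, lay between 383 and 464 with DMSO and between 362 and 480 with erlotinib (log2 fold change 0.03 ± 0.13 SE, adjusted p = 0.863). The log2 ratio of PTBP1 to PTBP2 went from 4.91 ± 0.20 to 3.97 ± 0.26 (SD, n = 3 each). Corrected for GC content and length, PTBP2 passed as higher (0.32, adjusted p = 0.0143).

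The MBNL genes moved in different directions. MBNL2 was the regulator with the largest rise among those with a mean signal above 1000. It measured 1141, 1306 and 1055 with DMSO and 2644, 2572 and 2482 with erlotinib, a 2.20-fold rise (log2 fold change 1.14 ± 0.08 SE, adjusted p = 1.0e-10) with no overlap. MBNL1, the most abundant of the family and the protein sequestered on CUG repeats in myotonic dystrophy, fell. It measured 8914, 10832 and 8940 with DMSO and 7130, 7258 and 6940 with erlotinib (log2 fold change -0.42 ± 0.07 SE, adjusted p = 3.0e-05). MBNL3, linked to muscle differentiation, lay between 1471 and 1700 with DMSO and between 1415 and 1511 with erlotinib (log2 fold change -0.08 ± 0.08 SE, adjusted p = 0.378), and turned positive when libraries were scaled to their totals (0.10). Per kb of transcript, MBNL1 was 6.90-fold above MBNL2 with DMSO and 2.34-fold above it with erlotinib. The log2 ratio of the pair went from 3.03 ± 0.06 to 1.47 ± 0.03 (SD, n = 3 each), the largest fall of a ratio among the 15 pairs compared.

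CELF proteins bind GU-rich RNA and oppose MBNL proteins on a number of muscle exons. CELF2 showed the largest fall of all regulators. It measured 855, 955 and 825 with DMSO and 157, 142 and 136 with erlotinib, which is 6.07-fold lower (log2 fold change -2.59 ± 0.12 SE, adjusted p = 7.8e-14). CELF1, known also for promoting decay of GU-rich mRNAs, measured 4603, 5152 and 4998 with DMSO and 3470, 3205 and 3300 with erlotinib (log2 fold change -0.56 ± 0.07 SE, adjusted p = 2.5e-07). The ratio of CELF1 to CELF2 per kb was 6.48 with DMSO and 26.6 with erlotinib. The other 4 CELF genes were not tested. CELF6 had 0, 4 and 0 reads with DMSO and 12, 10 and 7 with erlotinib, CELF5 and CELF3 had 45 and 36 reads over all libraries, and CELF4 had 1.

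The ESRP paralogs parted as well. ESRP1 measured 4779, 5063 and 4687 with DMSO and 5851, 5770 and 5664 with erlotinib, a small rise with no overlap (log2 fold change 0.25 ± 0.06 SE, adjusted p = 0.00138). ESRP2 measured 4290, 3908 and 4346 with DMSO and 2339, 2511 and 2411 with erlotinib (log2 fold change -0.79 ± 0.07 SE, adjusted p = 2.2e-09). Per kb the pair was about equal with DMSO (ratio 1.05), and ESRP1 was 2.17-fold above ESRP2 with erlotinib. Both are epithelial splicing factors, and of the epithelial markers CLDN4 and CLDN7 were higher (log2 fold changes 0.93 and 0.66) while KRT18, KRT8, EGFR, KRT7 and KRT19 were lower (-1.25 to -0.39). EPCAM and CDH1 did not pass.

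**Figure D3:**
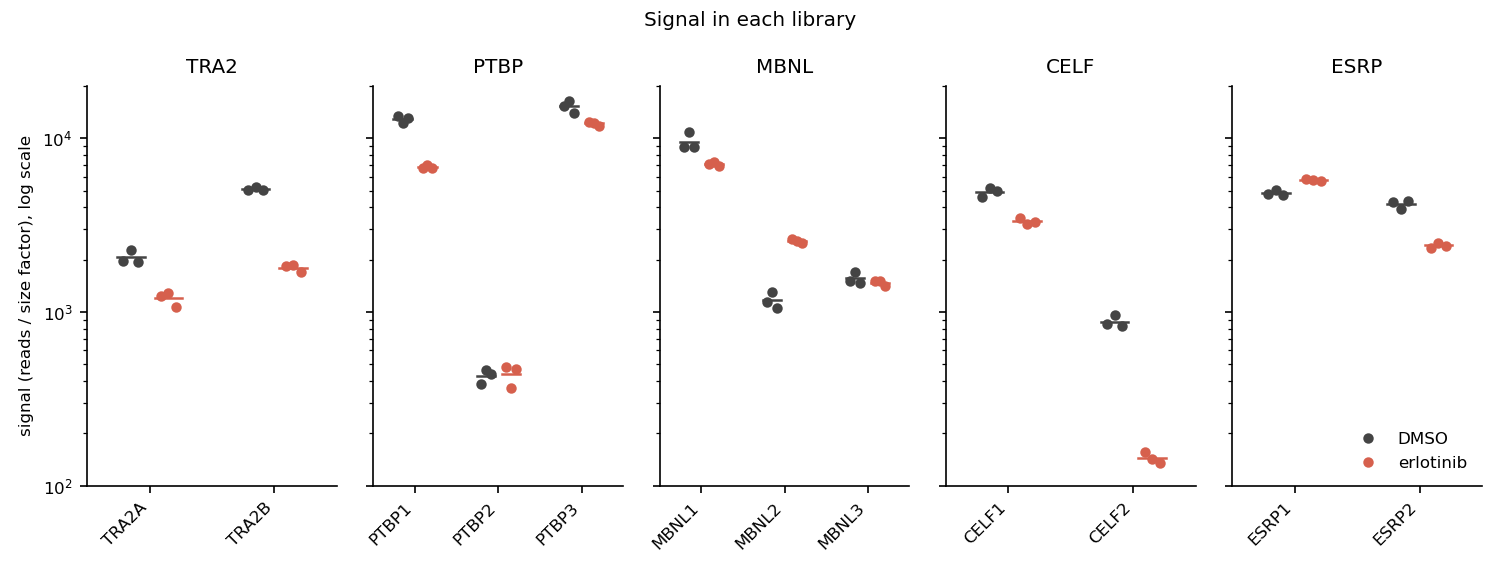
Signal on a log axis of the TRA2, PTBP, MBNL, CELF and ESRP genes with a tested value, one point per library (grey, 3 DMSO; red, 3 erlotinib) and a line at the mean. MBNL2 and ESRP1 are the genes whose erlotinib points lie above all DMSO points, and CELF2 shows the widest gap, from 878 to 145 on average.

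RBFOX and NOVA proteins are known mainly from neurons, and their genes had low signals or no reads. RBFOX3 (also NeuN, a marker of mature neurons) had 8, 6 and 8 reads with DMSO and 19, 26 and 19 with erlotinib. Its rise (log2 fold change 1.29 ± 0.52 SE, adjusted p = 0.0316) rested on these few reads and did not pass when DMSO library 2 or erlotinib library 4, 5 or 6 was left out (adjusted p = 0.061 to 0.133) or when GC content and length were corrected for (0.89, adjusted p = 0.128). RBFOX2, the broadly expressed member, lay between 154 and 263 with DMSO and between 146 and 196 with erlotinib (log2 fold change -0.28 ± 0.19 SE, adjusted p = 0.189). Without DMSO library 2 it passed as lower (-0.51, adjusted p = 0.00823), but leaving out other libraries gave values as small as -0.13 (adjusted p up to 0.577). NOVA1 lay between 178 and 236 with DMSO and between 220 and 273 with erlotinib (log2 fold change 0.29 ± 0.15 SE, adjusted p = 0.0966). It passed as higher with libraries scaled to their totals (0.46, adjusted p = 0.00969), without DMSO library 1 (0.38, adjusted p = 0.0404) and with GC content and length corrected for (0.39, adjusted p = 0.022). Leaving out other libraries gave values for NOVA1 as small as 0.18 (adjusted p up to 0.277). RBFOX1 had 0 reads in every library and NOVA2 had 6 in all. Of 7 neuronal markers, RBFOX3 among them, 3 were tested and 2 were higher, where 35.3% of all genes were higher. Their summed signal was 295 to 346 with DMSO and 1142 to 1166 with erlotinib, nearly all of it from SYT1, while SNAP25 and ELAVL4 were listed at 0. Whether this bears on RBFOX3 was not tested.

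To set related genes against each other within a library, 15 pairs with both genes tested were compared by their log2 ratio. The ratio was taken on signal + 1, so it depends on the size factors only through the added 1. In 14 pairs the DMSO and erlotinib libraries did not overlap, 5 ratios with the higher values in erlotinib libraries and 9 with the lower. Among all single genes tested, 36.9% were lower and 36.7% higher with no overlap. The share among pairs of other genes was not taken, so the count is not a trait of these pairs. The exact permutation test (two-sided) gave p = 0.1 for each of these, the smallest p that 3 against 3 libraries allow, and 0.107 after adjustment over the 15 pairs, so no pair could pass. The largest differences were those of CELF1 to CELF2 (2.03), MBNL1 to MBNL2 (-1.56), HNRNPA1 to HNRNPA2B1 (1.26) and ESRP1 to ESRP2 (1.04). SRSF5 to SRSF6 was the pair with overlapping groups (-0.07, p = 0.5 by the same exact test).

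**Figure D4:**
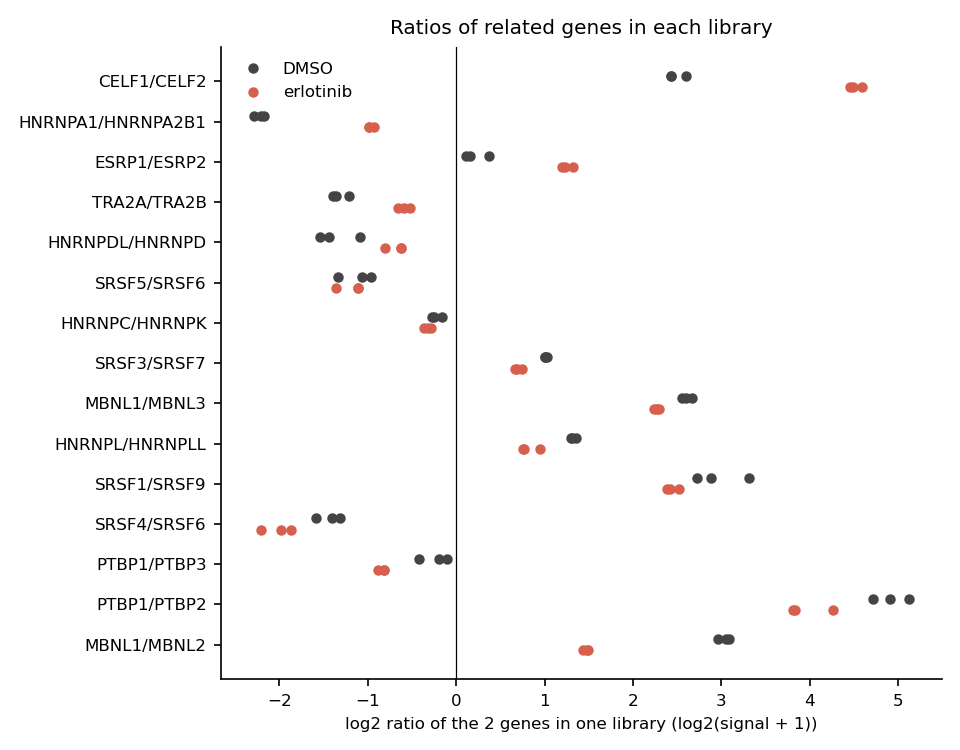
Log2 ratio of the 2 genes of each of 15 pairs in each library (grey, DMSO; red, erlotinib; the ratio is taken on signal + 1). Red and grey points are separate in 14 pairs and overlap for SRSF5/SRSF6, and the widest shifts are those of CELF1/CELF2 to the right and MBNL1/MBNL2 to the left.

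Calls in both directions were found among the kinases that phosphorylate SR proteins. Of 11 genes for SR protein kinases and transport, 10 were tested, 5 were lower and 3 higher (median log2 fold change -0.28), and CLK2 was listed at 0. Over all genes 35.4% were lower and 35.3% higher, and over abundant genes 50.9% and 28.5%, though CLK4 and DYRK1B, both called higher, lay below the signal of abundant genes. SRPK1, which phosphorylates SR proteins in the cytoplasm for import into the nucleus, measured 4219, 4648 and 4047 with DMSO and 1975, 2117 and 1917 with erlotinib (log2 fold change -1.10 ± 0.07 SE, adjusted p = 2.4e-11). PPP1R8, a nuclear inhibitor of protein phosphatase 1, fell by 0.61 on the log2 scale. CLK1, a nuclear kinase that releases SR proteins from speckles, rose: 647, 835 and 689 with DMSO and 1529, 1285 and 1234 with erlotinib (log2 fold change 0.90 ± 0.10 SE, adjusted p = 1.4e-07). DYRK1B, a kinase linked to quiescence, rose by 1.32 ± 0.18 SE on the log2 scale (adjusted p = 1.4e-06).

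The spliceosome itself was mostly lower. Of 58 tested genes for the core snRNPs and the spliceosome, 50 were lower and 2 higher (86.2% and 3.45%, against 35.4% and 35.3% of all genes and 50.9% and 28.5% of abundant genes, although some members, SNRPF among them, are not abundant; median log2 fold change -0.65), and the summed signal was 126318 to 127062 with DMSO and 81394 to 82438 with erlotinib. SNRPF and SNRPD1, proteins of the Sm ring, fell the most (log2 fold changes -1.96 ± 0.23 SE and -1.77 ± 0.13 SE), while SLU7 and XAB2 were the 2 that rose (0.38 and 0.29). The groups of XAB2 overlapped (634 to 887 with DMSO, 852 to 1029 with erlotinib, adjusted p = 0.0238), and those of SLU7 did not. Without DMSO library 2 or without erlotinib library 5, 1 gene of the list was higher. SF3B1, the branch site binding subunit of the U2 snRNP, measured 5905, 6579 and 6083 with DMSO and 5785, 5560 and 5590 with erlotinib and did not pass (log2 fold change -0.13 ± 0.06 SE, adjusted p = 0.0750). U2AF1, PRPF8, DHX16, LSM2 and SNRPN were listed at 0 in all libraries, a set with genes that every cell uses, so nothing is said of their expression.

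Among 61 other tested splicing regulators, 37 were lower and 11 higher (60.7% and 18.0%, against 35.4% and 35.3% of all genes and 50.9% and 28.5% of abundant genes; median log2 fold change -0.29). With libraries scaled to their totals, 26 were lower and 19 higher, where 27.8% of all genes were lower and 43.3% higher. SFPQ, an RNA binding protein of the nucleus, was among those with the largest falls (log2 fold change -1.07 ± 0.06 SE, adjusted p = 2.1e-12). PCBP4 and RSRP1 rose the most (1.31 ± 0.22 SE and 1.24 ± 0.14 SE), and neither reached the signal of abundant genes. QKI, which like MBNL1 regulates circular RNAs and muscle exons, fell by 0.30 on the log2 scale (adjusted p = 9.7e-04), and RBM47, an epithelial splicing factor, measured 8698 to 8952 with DMSO and 9144 to 9493 with erlotinib (log2 fold change 0.08 ± 0.06 SE, adjusted p = 0.223). Of the 16 genes of the exon junction complex and nonsense-mediated decay, 11 (68.8%) were lower, against 35.4% of all genes and 50.9% of abundant genes, and 1 (6.25%), SMG6, was higher (log2 fold change 0.25), against 35.3% and 28.5%. Some of the 16, MAGOHB and MAGOH among them, did not reach the signal of abundant genes. No gene of this list was higher without erlotinib library 6 or with GC content and length corrected for, and 4 were with libraries scaled to their totals. MAGOHB and MAGOH, core proteins of the junction complex, fell the most (log2 fold changes -1.37 and -1.12), and UPF1, the helicase of the decay pathway, fell by 0.39 (adjusted p = 1.4e-04). Proliferation moved with these lists: all 20 proliferation markers were lower, each by at least 1 log2 unit. Over all genes, 35.4% were lower and 10.8% by at least 1 log2 unit. The markers had a median log2 fold change of -2.60 and summed signals of 94709 to 99362 with DMSO and 16561 to 17157 with erlotinib. RRM2 and AURKB fell the most (-4.14 and -3.33), and TOP2A was the most abundant with DMSO and MCM7 with erlotinib. The part of proliferation in the fall of the splicing regulators was not tested.

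**Figure D5:**
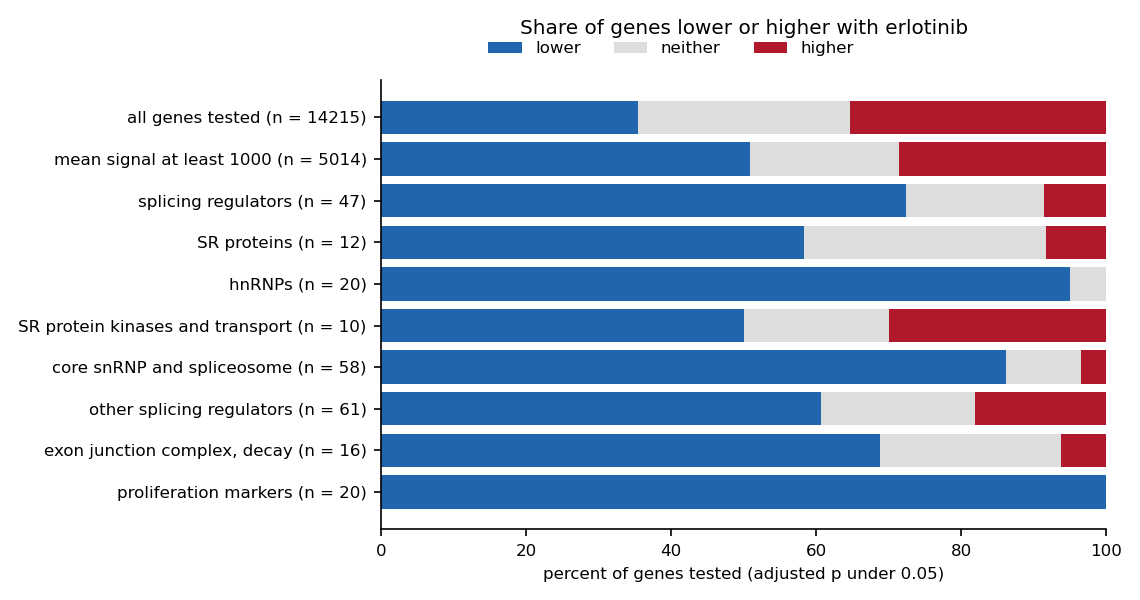
Percent of tested genes lower (blue), higher (red) and neither (grey) with erlotinib at an adjusted p under 0.05 for all genes, for genes whose mean signal reached 1000, for the splicing regulators and their 2 large families, and for the related lists, with the number tested in brackets. The splicing regulators (72.3% lower), the hnRNPs (95.0%) and the core spliceosome (86.2%) have longer blue bars than the 50.9% of abundant genes, and the SR proteins reach 58.3%.

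Transcript features shared by the regulators were described without a test. The reference transcript had a median GC content of 41.8% in the 47 tested regulators and 48.3% in 12555 tested genes with such a transcript, and a median length of 3768 and 3364 bases. Over those genes log2 fold change and GC content had a Spearman's rho of 0.20, which is across genes of the same libraries. With GC content and length corrected for, 31 regulators were lower and 7 higher, and 40.3% of the 12555 genes in that fit were lower and 35.4% higher. A transcript annotated for nonsense-mediated decay was listed for 36 of the 47 regulators (76.6%) and for 46.8% of the 12555 genes.

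The promoters of the regulators were read from RefSeq (GRCh38.p14), from 250 bases before to 50 after the start, which was possible for 41 of the 47. Motifs were searched on both strands. The E-box CACGTG, the form bound by MYC and MAX, was found in 6 of 30 promoters of lower genes (HNRNPA3, HNRNPD, HNRNPDL, HNRNPH3, HNRNPM and HNRNPUL1), in 0 of 11 of the others, and in 7.43% of 27305 promoters in all. The letters CCAAT were found in 13 of 30 and 2 of 11 (35.7% of all promoters), GGGCGG, the GC box, in 22 of 30 and 6 of 11 (44.6%), and CATTCC, the TEAD motif, in 5 of 30 and 0 of 11 (14.05%). TGANTCA, the AP-1 motif, was found in 0 of 30 and 1 of 11 (7.76%). TATAAA and CCGGAAG, an ETS motif, were each found in 4 of 30 and 2 of 11 (12.0% and 10.7%), and the E2F forms TTTCGCGC and TTTGGCGC in none (0.546% and 0.659%). A match is a description of the sequence and not a binding site. The promoters of SRSF1, SRSF3, SRSF7, TRA2B, CELF2, HNRNPA2B1, HNRNPAB and HNRNPR, which fell by over 1 log2 unit, hold no CACGTG. HNRNPDL holds it at a log2 fold change of only -0.29. 2 promoters with an E-box from genes that fell by over 1 log2 unit and that of MBNL2, which rose, are shown with CACGTG and CCAAT in capitals. HNRNPM (chr19:8444725-8445024) and HNRNPA3 (chr2:177212544-177212843), like MBNL2 (chr13:97141584-97141883), are read from the plus strand. HNRNPA3 holds both motifs, HNRNPM holds the E-box and MBNL2 holds neither. MBNL2 is the gene whose promoter holds the AP-1 motif, which is not in capitals.
HNRNPM promoter: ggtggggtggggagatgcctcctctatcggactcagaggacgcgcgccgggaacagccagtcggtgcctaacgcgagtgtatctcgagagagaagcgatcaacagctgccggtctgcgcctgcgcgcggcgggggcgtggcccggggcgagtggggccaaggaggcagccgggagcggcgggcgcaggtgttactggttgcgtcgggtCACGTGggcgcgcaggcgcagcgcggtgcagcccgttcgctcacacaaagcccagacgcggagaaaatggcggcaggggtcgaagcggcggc
HNRNPA3 promoter: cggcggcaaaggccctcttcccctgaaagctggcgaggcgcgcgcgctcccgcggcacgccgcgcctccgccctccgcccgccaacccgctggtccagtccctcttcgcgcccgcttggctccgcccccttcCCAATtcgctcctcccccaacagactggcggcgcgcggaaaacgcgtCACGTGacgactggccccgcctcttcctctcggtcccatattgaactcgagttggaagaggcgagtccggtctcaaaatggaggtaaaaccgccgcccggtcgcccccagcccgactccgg
MBNL2 promoter: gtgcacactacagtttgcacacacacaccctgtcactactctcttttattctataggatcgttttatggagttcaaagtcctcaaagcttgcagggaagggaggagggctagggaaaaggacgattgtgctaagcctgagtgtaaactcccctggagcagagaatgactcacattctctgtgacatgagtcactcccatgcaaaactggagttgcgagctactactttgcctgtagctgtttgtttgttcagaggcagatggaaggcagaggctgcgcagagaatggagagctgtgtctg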

How the data were processed

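The authors mapped reads to GRCh38 with Bowtie2 (2.3.4) and assigned reads with a unique position to genes with featureCounts (1.6.3). DESeq2 (1.18.1) is also named in the submitters' processing notes. The deposited signal values are whole reads divided by 1 size factor per library: in each of the 6 libraries 100% of values lay within 0.01 reads of a whole multiple of 1 step. These sources do not give the strand setting. Bowtie2 does not split reads at introns. From the signal, log2(signal + 1) was fitted with limma (3.58.1, variance trend, R 4.3.3) over 14215 genes whose mean signal reached 10, with Benjamini-Hochberg adjustment over all of them, two-sided, at 0.05. As alternatives, DESeq2 (1.42.0), edgeR (4.0.16) and limma-voom were run on the recovered reads. Exon and length data came from GENCODE release 44. In data simulated with 200 changed genes, the fit recovered 138 of the 173 that were tested, and 4.17% of its calls were false. The simulation held no deviation linked to GC content, and far more genes were called in the real data. It therefore does not give the error of the calls made here. Erlotinib columns carry the numbers 4 to 6 and were assigned to their group only.

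The members and lists were chosen with earlier results of these data known. Named were all tested genes of the small families, and, of SRSF and HNRNP, the 4 largest rises and falls with no overlap, the 2 highest per kb and those past 1 log2 unit. From each related list the 2 largest rises and falls and a few core genes were named, and 1 item is not reported here. The SRSF and HNRNP genes with little or no change, the SRSF genes with smaller falls, HNRNPF and HNRNPL were named after their values were seen. Also left out were 4 pseudogene rows.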

Additional observations from a re-analysis of the deposited data

How the results depend on the processing

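DESeq2, edgeR and limma-voom on the recovered reads each gave 34 regulators lower and 4 higher, all shared with the calls above, as did pseudocounts of 0.1 and 10. No filter on low values gave 34 lower and 5 higher of 53, and at least 10 reads in every library gave 34 lower and 3 higher of 46. Leaving out 1 library gave 32 to 35 lower and 3 to 5 higher. No called regulator was reversed by any alternative run for it. These were 15, or 14 for RBFOX3, which the filter of at least 10 reads in every library left out. Of the 38 called, 32 kept their side of the threshold in all. With correction for GC content and length, which was added after seeing the data, 7 regulators were higher and 0 of the junction complex and decay genes. With libraries scaled to their totals, 19 of the other splicing regulators and 4 of the junction complex and decay genes were higher. Leaving out 1 library gave 1 to 2 higher core spliceosome genes and 0 to 1 higher junction complex and decay genes. Among regulators without a call, the log2 fold change turned with libraries scaled to their totals for MBNL3 (0.10), SRSF6 (0.10), SRSF11 (0.14) and SRSF5 (0.0255), and with correction for GC content and length for SRSF6 (0.10), SRSF11 (0.17) and SRSF5 (0.10). Leaving out 1 library gave log2 fold changes of -0.007 to 0.0548 for HNRNPLL, of -0.0514 to 0.16 for PTBP2 and a difference of -0.17 to 0.0111 for SRSF5 to SRSF6. The cause was not tested. No paired analysis was possible because the erlotinib columns carry the numbers 4 to 6 and the sample titles 1 to 3. With 3 libraries per treatment, no permutation test could go below 0.1.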
